A study of Mus musculus with 6 samples.

Results

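Mitochondrial ribosomal protein genes encode the protein part of the mitoribosome, the ribosome inside mitochondria. They were taken as every row of the deposited gene table whose symbol is Mrpl or Mrps followed by a number and at most 1 letter. This gave 78 of 55487 rows, 49 named for the large subunit (Mrpl) and 29 for the small subunit (Mrps). RNA was sequenced from bone-marrow LSK cells, the lineage-negative fraction positive for Sca-1 and Kit which includes the haematopoietic stem cells. Of the 6 libraries, 3 came from Mc5r-null mice, which lack the melanocortin 5 receptor (a Gs-coupled peptide hormone receptor), and the other 3 from their wild-type littermates. The series places both genotypes after irradiation, and no unirradiated library was analysed here. The dose, the time after irradiation, the age and sex of the mice, the form of the Mc5r-null allele and the number of mice behind a library are not given in the sources used here. The p-values and SDs therefore reflect only how far these libraries spread, part of which may be technical. In bulk RNA, fewer cells of a type and less RNA per cell cannot be told apart.

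The mitoribosome translates the few messages that mitochondrial DNA encodes, all of them for membrane subunits of the respiratory chain and the ATP synthase. Its ribosomal RNAs come from mitochondrial DNA, but its proteins are encoded in the nucleus, made in the cytosol and imported, so its assembly draws on both genomes. Some of the proteins have a counterpart at the same place in the bacterial ribosome, while others were added in mitochondria. Haematopoietic stem cells are known to lean little on respiration at rest and more on it as they are activated and differentiate.

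The libraries held 13983016 to 14953169 counts. Mc5r itself had 181, 157 and 198 counts in the wild-type libraries and 0, 0 and 1 in the Mc5r-null libraries. Markers of LSK cells and of other cell types differed between the genotypes. In the marker counts, higher and lower mean an edgeR adjusted p under 0.05. Of all 15257 tested genes, 16.8% were higher and 16.1% lower by this measure. Of 10 LSK and stem cell markers, 7 were higher and 1 lower in Mc5r-null, with a summed level of 1416 to 1447 CPM (a library's counts scaled to a common total) in wild type and 1716 to 1752 CPM in Mc5r-null. Kit, which defines the gate together with Ly6a (Sca-1), had a mean of 238 scaled CPM in wild type and 259 in Mc5r-null, and Ly6a had 58.6 and 67.4. Of 8 plasma cell markers, all 8 were higher (11644 to 11720 CPM against 37063 to 39499 CPM), and all 7 erythroid markers were higher (25.4 to 25.6 CPM against 166.9 to 167.7 CPM). Of 9 myeloid progenitor and granulocyte markers, 7 were lower (15300 to 16327 CPM against 9798 to 10254 CPM), as were all 5 of mast cells and basophils (320.1 to 327.8 CPM against 99.0 to 106.9 CPM). Of 7 B cell markers, 2 were higher and 4 lower (132.0 to 135.0 CPM against 141.7 to 146.0 CPM), and of 4 T and NK cell markers tested, 1 was higher and 1 lower (273.3 to 276.1 CPM against 212.7 to 219.7 CPM over all 7 listed). No listed marker was at 0 in all 6 libraries. Immunoglobulin genes took 2.14% to 2.15% of all counts in wild type and 6.86% to 6.96% in Mc5r-null. The part of these differences in cell content in the values below was not tested. Values without immunoglobulin genes take out only the counts of those genes, and not the other RNA of any cell type.

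The promoters of 4 members are shown because their genes carry the findings that follow. Mrpl20, Mrps2 and Mrpl41 are among the 4 members that fell with the smallest p and have no annotated exon in the 250 bases before their start, and Mrpl52 is the member that rose. Each is the RefSeq sequence of build GRCm38.p6, 5′ to 3′ on the gene's strand, ending at the base before the annotated start. They lie at chr4:155802628-155802877 on the plus strand (Mrpl20), chr2:28467816-28468065 on the plus strand (Mrps2), chr2:24975099-24975348 on the minus strand (Mrpl41) and chr14:54426659-54426908 on the plus strand (Mrpl52). Capitals mark matches, on either strand, to the letters searched: GCGCA, any base and GCGC for NRF1 and CCGGAAG for the ETS factor GABP, both known regulators of nuclear genes for mitochondria, AAGATGGCG for YY1, GGGCGG for SP1, CCAAT for NF-Y, CACGTG for the E-box that MYC and others bind, and TATAAA for the TATA box.
Mrpl20: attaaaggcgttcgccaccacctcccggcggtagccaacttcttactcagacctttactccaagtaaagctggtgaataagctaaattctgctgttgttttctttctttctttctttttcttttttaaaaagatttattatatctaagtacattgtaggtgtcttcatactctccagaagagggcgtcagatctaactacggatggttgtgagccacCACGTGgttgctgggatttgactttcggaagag
Mrps2: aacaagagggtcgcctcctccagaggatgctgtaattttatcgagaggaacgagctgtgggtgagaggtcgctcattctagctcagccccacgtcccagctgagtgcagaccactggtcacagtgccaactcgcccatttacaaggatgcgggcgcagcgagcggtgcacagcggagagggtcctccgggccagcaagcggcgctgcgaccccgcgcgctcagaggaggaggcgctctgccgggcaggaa
Mrpl41: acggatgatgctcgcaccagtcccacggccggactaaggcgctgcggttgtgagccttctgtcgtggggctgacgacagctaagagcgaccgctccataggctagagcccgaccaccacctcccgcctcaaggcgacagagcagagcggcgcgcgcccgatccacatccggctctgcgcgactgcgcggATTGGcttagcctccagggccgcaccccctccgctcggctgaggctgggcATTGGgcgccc
Mrpl52: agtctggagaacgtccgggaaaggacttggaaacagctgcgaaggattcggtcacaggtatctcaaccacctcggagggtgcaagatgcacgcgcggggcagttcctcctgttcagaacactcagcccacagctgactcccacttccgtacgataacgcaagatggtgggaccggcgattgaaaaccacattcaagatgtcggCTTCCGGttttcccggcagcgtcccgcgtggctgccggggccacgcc
The Mrpl20 window holds 1 E-box. The Mrps2 window holds none of these motifs. In Mrpl41 there are 2 CCAAT matches, both on the other strand, and in Mrpl52 there is 1 ETS match, also on the other strand.

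Across the group, 69 of the 78 members had 75 RefSeq windows, running from 250 bases before to 50 bases after a start. The ETS motif stood in 34.7% of member windows, against 17.2% of the 12942 windows of all tested genes and 8.86% of all 32851 windows. The NRF1 motif stood in 17.3%, against 9.77% and 4.60%. The YY1 motif stood in 10.7%, against 2.94% and 1.40%. CCAAT was in 40.0% of member windows (37.8% of windows of tested genes), the E-box in 9.33% (9.92%), the SP1 motif in 52.0% (61.1%) and the TATA box in 6.67% (7.29%). Between the subunits, the ETS motif was in 31.3% of large-subunit and 40.7% of small-subunit windows, and the NRF1 motif in 20.8% and 11.1%. The 27 windows of members that fell in Mc5r-null (26 genes) held the ETS motif in 11, NRF1 in 4 and YY1 in 1. They held SP1 in 15, CCAAT in 9, the E-box in 2 and TATA in 3. The 46 windows of members that were not called (41 genes) held the ETS motif in 14, NRF1 in 9 and YY1 in 7. In these SP1 was in 24, CCAAT in 20, the E-box in 5 and TATA in 2. Differences between the 2 sets of windows were not tested. None of these motifs contains another, though their matches may overlap within a window, and a match describes only the letters there.

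Many mitochondrial ribosomal protein messages were lower in Mc5r-null LSK cells, by a small amount each. Of the 77 members with enough counts to test, 31 fell, 1 rose and 45 did not pass the test. In the same fit 16.1% of all 15257 tested genes fell and 16.8% rose, and the members' share that fell was 40.3%. The test was edgeR's quasi-likelihood test with Benjamini-Hochberg adjustment over all genes tested, and a gene is said to have fallen or risen where its adjusted p was under 0.05. The fitted log2 fold change of Mc5r-null over wild type was below 0 in 63 of the 77 members and in 50.7% of all genes. Its median was -0.18 over the members, a 1.13-fold lower level, with an interquartile range of -0.28 to -0.07. Over all genes the median was -0.0047 and the interquartile range -0.17 to 0.20. The members that fell did so by 1.11-fold to 1.52-fold. Without wild-type replicate 2 the number that fell was 20 (12.8% of all genes fell in that fit), and with DESeq2 in place of edgeR it was 17 (9.48% of all genes).

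The groups separated more often than the test called. All 3 Mc5r-null libraries lay below all 3 wild-type libraries in 43 members, where 24.1% of all tested genes were arranged this way. The reverse order was seen in 2 members, against 24.2% of all genes. Each of the 31 members that fell was among the 43. DESeq2 also called 1 member higher, with 10.8% of all genes called higher. Without immunoglobulin genes in the fit 27 members fell, all of them among the 31, where 15.4% of all 15039 genes tested fell.

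Members of both subunits fell. Of the 49 large-subunit members, 18 fell and 1 rose, 37 had a log2 fold change below 0, and the median was -0.17. Of the 28 small-subunit members tested, 13 fell and none rose, 26 were below 0, and the median was -0.18. With edgeR 0 small-subunit members were higher at an unadjusted p under 0.05, and DESeq2 also called 0 higher. The small-subunit count was smaller whenever 1 library was left out, at 6 to 11. It was 7 without wild-type replicate 1, 6 without wild-type replicate 2 and 8 without Mc5r-null replicate 3. In those 3 fits 13.1%, 12.8% and 13.1% of all genes fell, against 16.1% with all libraries. DESeq2 gave 11 large-subunit and 6 small-subunit members that fell. The difference between the subunits' counts was not tested.

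**Figure D1:**
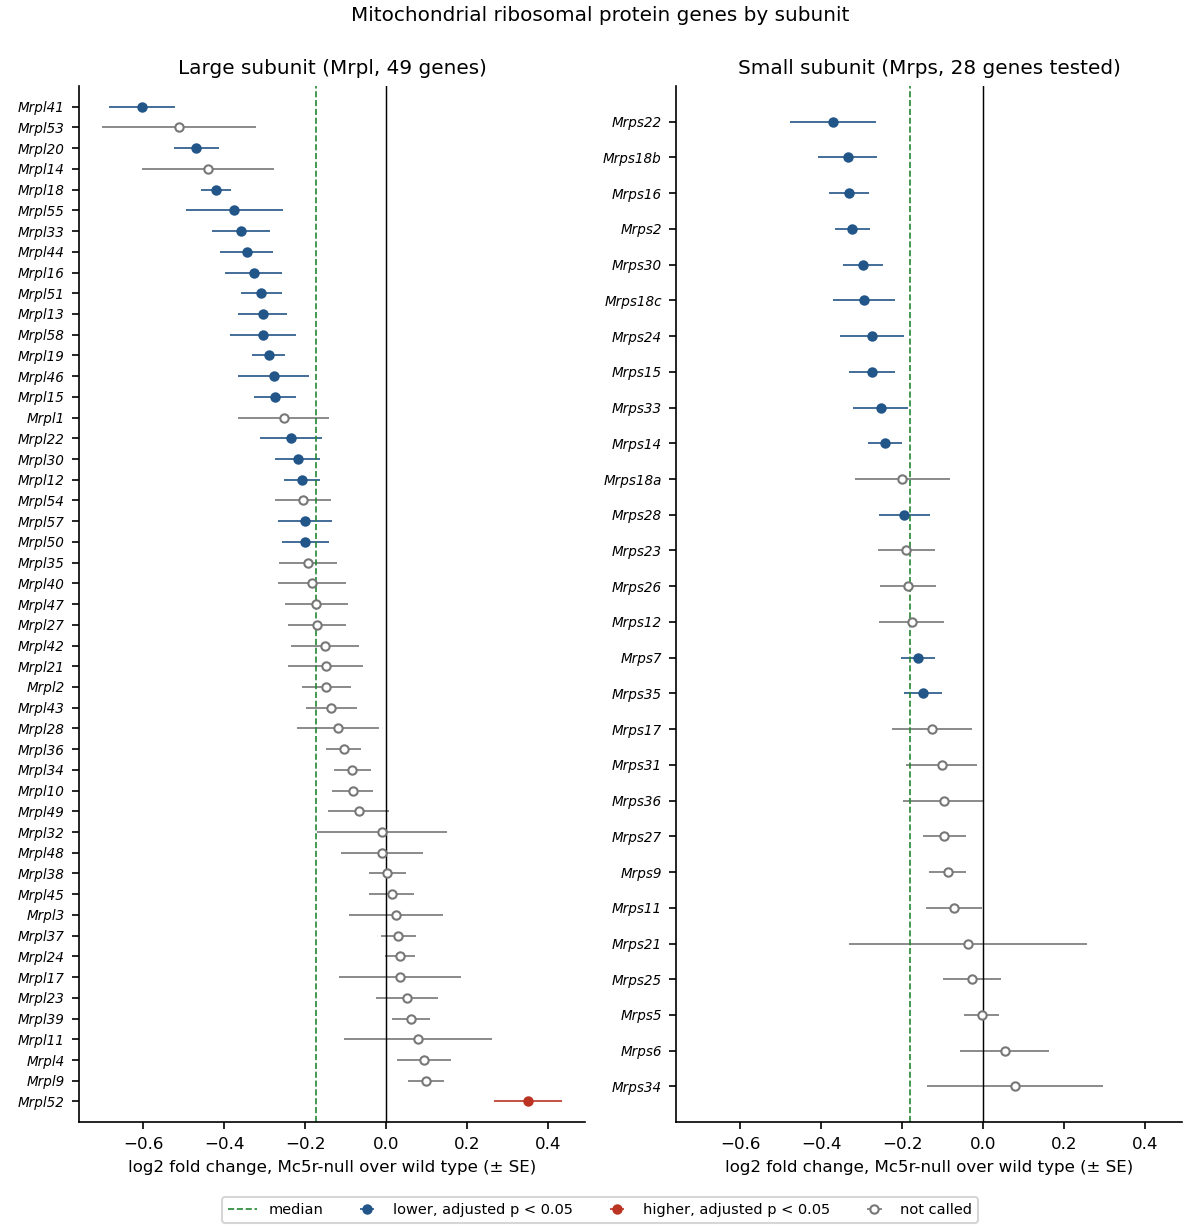
Fitted log2 fold change of Mc5r-null over wild type (horizontal axis, bars ± SE from 3 libraries per genotype) for each tested member, large subunit on the left and small subunit on the right. Dashed lines mark the medians of -0.17 and -0.18, and Mrpl52 is the only filled point to the right of 0.

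Mrpl18 had the smallest p of the group (ENSMUSG00000057388, GRCm38 chromosome 17, 12911349 to 12916345, minus strand). It encodes the counterpart of bacterial protein L18, a large-subunit protein also known for helping to carry 5S RNA into mitochondria. Its levels, in CPM scaled by edgeR's TMM factors, were 86.8, 90.8 and 88.2 in wild type and 64.6, 67.2 and 66.8 in Mc5r-null (replicates 1, 2 and 3). Within each genotype the libraries lay close together, and the gap between genotypes was far wider than either spread. The log2 fold change was -0.42 ± 0.036 (SE, n = 3 each), 1.34-fold lower, with an edgeR adjusted p of 6.2e-05.

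Mrpl20 (ENSMUSG00000029066, chromosome 4, 155802878 to 155809975, plus strand) encodes the counterpart of bacterial L20, a protein that joins the large subunit early in bacterial assembly. It had 50.2, 45.8 and 51.3 scaled CPM in wild type and 35.1, 35.4 and 35.8 in Mc5r-null. Wild-type replicate 2 was the lowest of its genotype and still stood clear of the Mc5r-null libraries, which were nearly equal. The log2 fold change was -0.47 ± 0.056 (SE; edgeR adjusted p = 0.000403).

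Mrps2 (ENSMUSG00000035772, chromosome 2, 28468066 to 28471178, plus strand), the counterpart of bacterial S2 in the small subunit, had 58.0, 54.9 and 55.6 scaled CPM in wild type and 44.9, 45.2 and 44.5 in Mc5r-null. The groups did not overlap, and the 3 Mc5r-null libraries differed by less than 1 scaled CPM. It fell 1.25-fold, with a log2 fold change of -0.32 ± 0.043 (SE; edgeR adjusted p = 0.000722).

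Mrpl41 (ENSMUSG00000036850, chromosome 2, 24974117 to 24975098, minus strand) showed the largest fitted fall of the 31. Its product is a large-subunit protein with no bacterial counterpart. The wild-type libraries had 21.97, 20.5 and 22.1 scaled CPM and the Mc5r-null libraries 15.1, 14.5 and 13.0. All Mc5r-null values lay well under the lowest wild-type value. The level was 1.52-fold lower, a log2 fold change of -0.60 ± 0.081 (SE; edgeR adjusted p = 0.000757).

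Among the other large-subunit members with the smallest p, Mrpl19, a counterpart of bacterial L19, went from 72.3, 70.4 and 75.8 scaled CPM in wild type to 60.2, 60.0003 and 58.4 in Mc5r-null (1.22-fold lower). Mrpl15, a counterpart of bacterial L15, went from 43.3, 44.6 and 41.4 to 34.7, 35.6 and 36.5 (1.21-fold lower). Mrpl33, a counterpart of bacterial L33, went from 44.5, 40.8 and 41.5 to 33.8, 35.2 and 29.9 (1.28-fold lower). In none of the 3 did the genotypes overlap, and the edgeR adjusted p was 0.00105, 0.00432 and 0.00558. The mitochondria-specific Mrpl51 had 60.1, 59.99 and 57.1 scaled CPM in wild type and 48.0, 45.2 and 49.95 in Mc5r-null (1.24-fold lower, edgeR adjusted p = 0.00219). Mrpl44, which is mitochondria-specific and related to the RNase III family, had 49.1, 50.7 and 56.1 in wild type and 38.8, 41.0 and 43.0 in Mc5r-null (1.27-fold lower, edgeR adjusted p = 0.00432). Wild-type replicate 3 was the highest Mrpl44 library, and the groups were separate without it.

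Of the small subunit, Mrps16, a counterpart of bacterial S16, had 40.6, 39.0 and 39.4 scaled CPM in wild type and 30.8, 31.8 and 31.9 in Mc5r-null. It fell 1.26-fold (edgeR adjusted p = 0.00127). Mrps14, a counterpart of bacterial S14, had 55.1, 55.2 and 53.5 scaled CPM in wild type and 45.7, 46.7 and 46.0 in Mc5r-null. Its fall of 1.18-fold was small but far outside the spread of either genotype (edgeR adjusted p = 0.00261). Mrps30 keeps a small-subunit name although its protein sits in the large subunit. It had 55.5, 53.2 and 50.2 scaled CPM in wild type and 43.4, 42.6 and 43.3 in Mc5r-null, 1.23-fold lower (edgeR adjusted p = 0.00252).

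Mrpl52 went the other way (ENSMUSG00000010406, chromosome 14, 54426909 to 54429756, plus strand). It encodes a mitochondria-specific large-subunit protein. The wild-type libraries had 20.98, 26.1 and 23.8 scaled CPM and the Mc5r-null libraries 29.7, 31.3 and 29.4, so every Mc5r-null library was above every wild-type library. The wild-type libraries were spread more widely than the Mc5r-null ones. The log2 fold change was 0.35 ± 0.084 (SE, n = 3 each; edgeR adjusted p = 0.0134). It stayed past the threshold when any 1 library was left out and with DESeq2 (adjusted p = 0.0248).

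**Figure D2:**
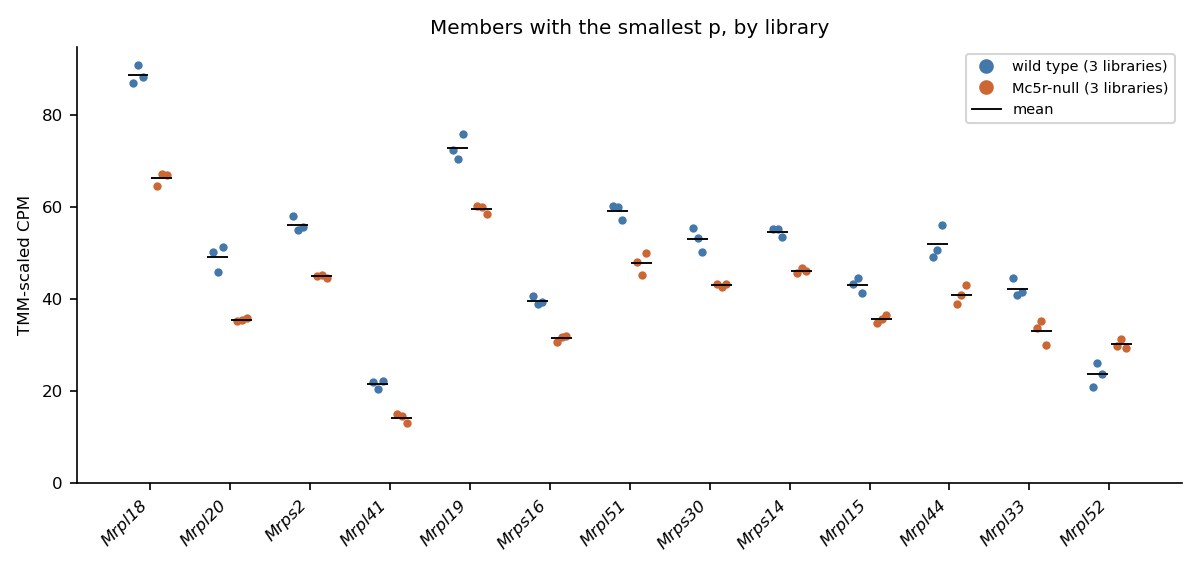
TMM-scaled CPM (vertical axis) in each of the 3 wild-type and 3 Mc5r-null libraries, with the group means as lines, for the 12 members that fell with the smallest p and for Mrpl52. The genotypes do not overlap in any of the 13 genes, and only in Mrpl52 do the Mc5r-null libraries lie higher.

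The most abundant members, by FPKM, changed to unequal extents. FPKM divides counts by length and library total, and in the deposited table the length of each member is the sum of all its distinct annotated exons, so genes with many overlapping exon versions are listed too low (by up to 2.725-fold). Mrpl34, the counterpart of bacterial L34, was the highest with 72.7, 74.0 and 71.1 FPKM in wild type and 65.8, 68.3 and 66.8 in Mc5r-null. The groups stayed apart, but on scaled CPM the log2 fold change was -0.08 ± 0.047 (SE; edgeR adjusted p = 0.213). Mrpl12, the stalk protein that also binds the mitochondrial RNA polymerase, had 56.9, 53.4 and 52.6 FPKM in wild type and 47.7, 44.0 and 46.1 in Mc5r-null, and it fell 1.15-fold on scaled CPM (edgeR adjusted p = 0.00775). Mrpl18 followed within the large subunit at 39.3, 41.2 and 40.1 FPKM against 28.6, 29.7 and 29.7. Mrps28 of the small subunit lay between Mrpl12 and Mrpl18 in the deposited FPKM. With merged exon lengths Mrpl34, Mrpl12 and Mrpl18 had a mean of 69.8, 60.8 and 55.5 FPKM over all libraries and Mrps28 had 39.6.

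In the small subunit Mrps28, related to bacterial S1, was highest with 44.6, 42.4 and 41.0 FPKM in wild type and 38.1, 36.7 and 34.4 in Mc5r-null. Mrps7, the counterpart of bacterial S7, had 28.7, 27.9 and 26.9 FPKM against 24.7, 23.7 and 24.4. Mrps15, the counterpart of bacterial S15, had 29.8, 27.2 and 29.3 FPKM against 21.97, 24.4 and 23.3. All 3 fell on scaled CPM (1.14-fold, 1.12-fold and 1.21-fold, with edgeR adjusted p of 0.0444, 0.0197 and 0.00689). The calls of Mrps28 and Mrps7 were lost with DESeq2 (adjusted p = 0.212 and 0.157), and that of Mrps15 was kept (adjusted p = 0.0195). With merged exon lengths Mrps28 was still the highest of the small subunit at a mean of 39.6 FPKM over all libraries, but Mrps15 (31.5 FPKM) and Mrps21 (30.1 FPKM) then lay above Mrps7 (29.7 FPKM).

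At the other end, Mrpl53, a mitochondria-specific protein, was the lowest tested large-subunit member with 2.14, 1.81 and 1.53 FPKM in wild type and 1.27, 1.16 and 1.32 in Mc5r-null. Its groups were separate, but the log2 fold change of -0.51 ± 0.19 (SE) had an edgeR adjusted p of 0.0720. Mrpl53 shares 88.0% of its exon bases with Gm42688 on the same strand, so its own level is uncertain. The lowest tested small-subunit member, Mrps17, a counterpart of bacterial S17, had 1.78, 1.92 and 1.83 FPKM against 1.90, 1.58 and 1.47, and its groups overlapped (edgeR adjusted p = 0.368). Mrps10 was the member that could not be tested, with 2, 7 and 4 counts in the wild-type and 1, 10 and 4 in the Mc5r-null libraries. Across the 77 tested members, the log2 of mean FPKM and the log2 fold change had a Pearson correlation of 0.017 and a Spearman correlation of -0.0041, over genes that share libraries and are not replicates. Among the 38 tested members with the higher FPKM 18 fell and 1 rose, and among the other 39 members 13 fell.

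**Figure D3:**
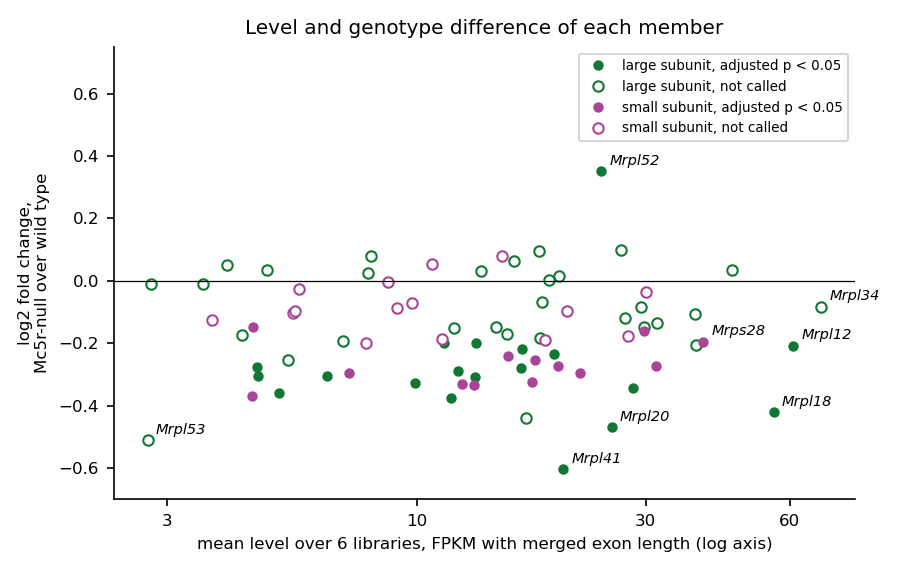
Mean level over the 6 libraries, as FPKM with merged exon length on a log axis, against the log2 fold change of Mc5r-null over wild type, 1 point for each of the 77 tested members, filled where the adjusted p was under 0.05. Members that fell lie at low and high levels alike, and Mrpl34 and Mrpl12, the highest of all, sit at -0.08 and -0.21.

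The group as a whole took a smaller part of the RNA in Mc5r-null. Its share of all gene counts was 0.306%, 0.305% and 0.303% in the wild-type libraries and 0.267%, 0.267% and 0.269% in the Mc5r-null libraries, a mean of 0.305% ± 0.0015 against 0.268% ± 0.0013 (SD, n = 3 each). This was 12.2% less. With immunoglobulin genes taken out of the totals the share was 0.312% ± 0.0015 against 0.288% ± 0.0015, which was 7.7% less, and the groups still did not overlap.

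Large-subunit members summed to 705.4, 706.1 and 707.2 FPKM in wild type and to 617.5, 613.8 and 623.8 in Mc5r-null. Small-subunit members summed to 333.9, 328.5 and 317.0 FPKM in wild type and to 274.1, 287.4 and 283.1 in Mc5r-null. Each sum was separate between the genotypes, lower by 12.4% for the large and by 13.8% for the small subunit. FPKM divides by a total that includes immunoglobulin counts (a mean of 2.14% in wild type and 6.91% in Mc5r-null). Sums without them were not computed, so these falls compare with the 12.2% above and not with the 7.7%. The ratio of the large to the small sum was 2.11, 2.15 and 2.23 in wild type and 2.25, 2.14 and 2.20 in Mc5r-null. These overlapped, with means of 2.16 ± 0.061 and 2.20 ± 0.059 (SD, n = 3 each), so a shift in balance between the subunits was not detectable beyond the spread of the libraries.

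**Figure D4:**
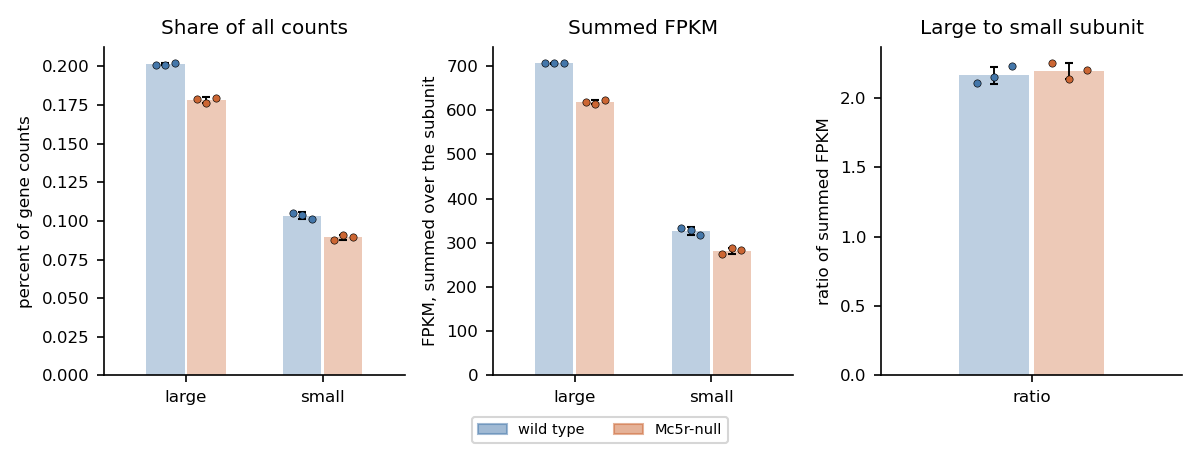
Share of all gene counts in percent (left) and summed FPKM (middle) for the large and small subunits, and the ratio of the summed FPKM (right). Bars are means of 3 libraries per genotype, error bars are SDs and points are libraries. The sums are lower in every Mc5r-null library, while the ratios of 2.11 to 2.23 and 2.14 to 2.25 overlap.

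Members with and without a bacterial counterpart at the same place in the ribosome fell. Mrps18a and Mrps18b, which descend from a bacterial protein but sit elsewhere, were counted as mitochondria-specific, and Mrps36 was placed in neither class. Of 45 tested members with a bacterial counterpart 19 fell and none rose, with a median log2 fold change of -0.17. With edgeR 0 of these were higher at an unadjusted p under 0.05, and with DESeq2 0 were called higher. Of 31 members counted as mitochondria-specific 12 fell (Mrps18b among them) and 1 rose, with a median of -0.19. When Mrps18a and Mrps30 were counted with the large subunit, where their proteins sit, 19 of 51 large-subunit and 12 of 26 small-subunit members fell.

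The 3 S18 paralogues, which come from 1 bacterial protein, all had a log2 fold change below 0. Mrps18b had 30.4, 30.1 and 31.3 scaled CPM in wild type and 23.3, 26.8 and 22.7 in Mc5r-null, 1.26-fold lower (edgeR adjusted p = 0.00888). Mrps18c, the form at the site of the bacterial protein, had 27.4, 26.2 and 24.2 in wild type and 19.8, 22.6 and 20.98 in Mc5r-null, 1.23-fold lower (edgeR adjusted p = 0.0197). DESeq2 did not call it (adjusted p = 0.0751). Mrps18a had 29.8, 30.1 and 32.5 in wild type and 21.9, 27.98 and 30.6 in Mc5r-null. Mc5r-null replicate 1 was the lowest library while replicate 3 lay within the wild-type range, and Mrps18a did not pass the test (log2 fold change -0.20 ± 0.12 SE, edgeR adjusted p = 0.239).

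Members also differed in how far the libraries of 1 genotype spread. The median SE of the log2 fold change was 0.061 in members that fell and 0.076 in members that were not called. In counting-error terms (variance over mean of the scaled counts, 1 where libraries differ by sampling alone) the median member had 1.38 in wild type and 1.13 in Mc5r-null. There were 9 members above 10 in a genotype, and none of them was called. Mrps34 reached 41.6 in Mc5r-null, with 25.9, 43.3 and 26.8 scaled CPM against 30.5, 30.5 and 29.8 in wild type, so replicate 2 alone stood high. Mrps21 reached 20.7 and 23.8, with 26.4, 25.03 and 16.2 scaled CPM in wild type and 15.3, 23.3 and 27.3 in Mc5r-null. Both genotypes of Mrps21 covered nearly the same range. Mrpl17, Mrpl3 and Mrpl32 were spread in Mc5r-null (19.9, 19.7 and 11.7), Mrpl11, Mrpl28 and Mrpl14 in wild type (16.7, 11.6 and 11.7), and Mrps18a in Mc5r-null (10.3).

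Of the 45 members that did not pass the test, 32 had a log2 fold change below 0 and 13 above, and 25 lay within 0.1 of 0. In 12 of the 45 the Mc5r-null libraries were all lower than the wild-type libraries (24.1% of all tested genes, called or not). Mrpl36, a counterpart of bacterial L36, was one of these with 44.9, 46.3 and 45.8 scaled CPM in wild type and 42.7, 42.4 and 42.4 in Mc5r-null (edgeR adjusted p = 0.10004). Mrpl24, the counterpart of bacterial L24, had 102, 103 and 98.3 scaled CPM in wild type and 107, 103 and 100.3 in Mc5r-null, and its groups overlapped. Mrps5, the counterpart of bacterial S5, had 57.9, 57.5 and 56.3 in wild type and 55.8, 59.4 and 56.1 in Mc5r-null (edgeR adjusted p = 0.967). Mrpl39 was the other member with Mc5r-null libraries all higher, at 42.3, 40.6 and 40.9 scaled CPM against 39.9, 38.8 and 39.9, and it did not pass the test (edgeR adjusted p = 0.351). Mrpl36, Mrpl24, Mrps5 and Mrpl39, like the widely spread members above, were named after their values were seen.

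Some members share bases with neighbours. In GENCODE release 21, whose gene coordinates equal those of all 78 members, 33 members share exon bases with another gene, 28 of them with a gene on the opposite strand. The libraries were made with a stranded kit, but no source used here says whether counting used strand, so such reads may be split uncertainly. Members that share exon bases fell in 14 of 33 cases (median log2 fold change -0.17), and members that share none in 17 of 44 (median -0.18). The overlap exceeds 30% of the exon bases in 6 members. These are Mrps25 (69.8%, with Nr2c2), Mrps34 (63.4%, with Mapk8ip3), Mrpl53 (88.0%, with Gm42688 on the same strand), Mrpl19 (36.0%, with Gcfc2), Mrpl43 (33.4%, with Twnk) and Mrps18b (30.5%, with Gm16279). Mrps34 also shares 37.0% with Nme3 on the same strand. Pseudogene rows such as Mrpl23-ps1 (344, 305 and 338 counts in the wild-type libraries, 310, 265 and 275 in the Mc5r-null libraries) show that reads were also assigned to near copies, so values of the parent genes are uncertain to that extent. Mrpl23 itself had 283, 282 and 307 counts in wild type and 268, 297 and 265 in Mc5r-null. Mrps36-ps1 had 110, 120 and 121 counts against 79, 85 and 80, and Mrps36 had 115, 103 and 114 against 98, 94 and 93. These counts are not scaled, and the Mc5r-null libraries had smaller totals. On scaled CPM the Mrps36 groups overlapped, at 7.61, 6.82 and 7.55 against 7.06, 6.78 and 6.70 (edgeR adjusted p = 0.546). The counts of Mrpl27-ps overlapped between the genotypes (68, 69 and 52 against 55, 47 and 54).

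Neighbours that start beside a member gave calls in both directions. Of the members, 23 have a protein-coding gene on the opposite strand that starts up to 1000 bases upstream or a short way past the member's start. Pairs whose starts overlap further, such as Mrpl46 and Mrps11, were not counted. Of the neighbours counted, 22 were tested. They gave 3 lower, 3 higher and 16 not called (32.9% of all tested genes were called in either direction), with a median log2 fold change of -0.03. Where the member fell (9 pairs), the neighbour fell in 1 and rose in 2. Mrpl44 fell while Wdfy1, which starts on the other strand and shares 126 exon bases with it, rose by 0.72 on the log2 scale (edgeR adjusted p = 6.5e-06). Mrpl51 fell while Ncapd2, a condensin subunit gene starting 100 bases away, rose by 0.09 (edgeR adjusted p = 0.00738). Mrpl57 and its neighbour Ska3, a kinetochore gene, both fell (log2 fold change -0.20 and -0.24, edgeR adjusted p = 0.0479 and 0.0412). The call of Mrpl57 was lost with DESeq2 (adjusted p = 0.200) and in 5 of the fits that left out 1 library.

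Genes that serve mitochondrial translation without an Mrpl or Mrps name gave mixed calls. The counts stand beside 16.1% of all tested genes that fell and 16.8% that rose. Of the 5 mitoribosomal proteins whose symbols lie outside the Mrpl and Mrps names, Chchd1 and Gadd45gip1 fell and the median log2 fold change was -0.13. Chchd1 had 29.6, 29.1 and 27.9 scaled CPM in wild type and 21.6, 21.4 and 19.0 in Mc5r-null, 1.40-fold lower (edgeR adjusted p = 0.00123). Of the mitochondrially encoded ribosomal RNAs, mt-Rnr1 was called higher and mt-Rnr2 lower, though poly-A selection makes their level depend on capture. Of 25 tested genes for mitoribosome assembly and ribosomal RNA modification 3 fell (Fastkd2, Ddx28 and Rbfa) and none rose by edgeR (2 were higher at an unadjusted p under 0.05, and 0 by DESeq2), with a median of -0.03. Of 17 translation factors and activators 3 fell and 1 rose, with a median of -0.10. The shares that fell were 12% of the assembly genes and 17.6% of these factors, near that of all tested genes. Lrpprc, which binds and stabilises mitochondrial messages, fell 1.22-fold, and Gfm1, the elongation factor G of mitochondria, fell 1.15-fold (edgeR adjusted p = 0.000309 and 0.00414). Oxa1l, which inserts new proteins into the inner membrane, rose 1.11-fold (edgeR adjusted p = 0.0189).

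Of 17 mitochondrial aminoacyl-tRNA synthetases 2 fell (11.8%, Yars2 and Mars2) and 1 rose (Vars2). Of 11 genes for mitochondrial DNA transcription and replication 1 fell (9.09%, Mterf1a) and 1 rose (Twnk, the mitochondrial helicase, which shares exon bases with Mrpl43). Neither share exceeded the 16.1% of all tested genes that fell. Of 10 tested regulators of mitochondrial biogenesis 2 rose, where 16.8% of all tested genes rose. None fell by edgeR (0 were lower at an unadjusted p under 0.05, and 0 by DESeq2), and the median was 0.08. Gabpb1, a subunit of the ETS factor GABP, rose 1.19-fold and Ppargc1b, a coactivator, 1.21-fold (edgeR adjusted p = 0.0264 and 0.0365). Of the 13 mitochondrial messages that the mitoribosome translates, 5 were lower (38.5%) and 2 higher, with a median of -0.0045. These are RNA levels, and as for the ribosomal RNAs, poly-A selection makes them depend on capture. Among them mt-Nd5 fell 1.10-fold, mt-Nd2 fell 1.11-fold and mt-Atp6 rose 1.13-fold.

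Nuclear complex I subunits and protein import genes had medians below 0 as well. Of 36 nuclear complex I subunits 21 fell (58.3%) and none rose, with a median log2 fold change of -0.20, led by Ndufb8 (1.39-fold lower, edgeR adjusted p = 8.4e-05). Of 23 import and chaperone genes 12 fell (52.2%) and none rose, with a median of -0.14. Over all tested genes 16.1% fell and 16.8% rose. In both lists edgeR gave 0 genes higher at an unadjusted p under 0.05, and DESeq2 gave 0 higher. Tomm5 fell 1.38-fold, Grpel1 1.33-fold and Tomm20 1.27-fold. Cytosolic ribosomal proteins, which form the other ribosome of the cell, split into 17 of 79 lower (21.5%) and 12 higher, with a median of -0.0066. Their most certain changes were Rps4x (1.14-fold higher), Rps14 (1.13-fold lower) and Rps18 (1.24-fold lower). Differences between these lists and the mitoribosomal genes were not tested.

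**Figure D5:**
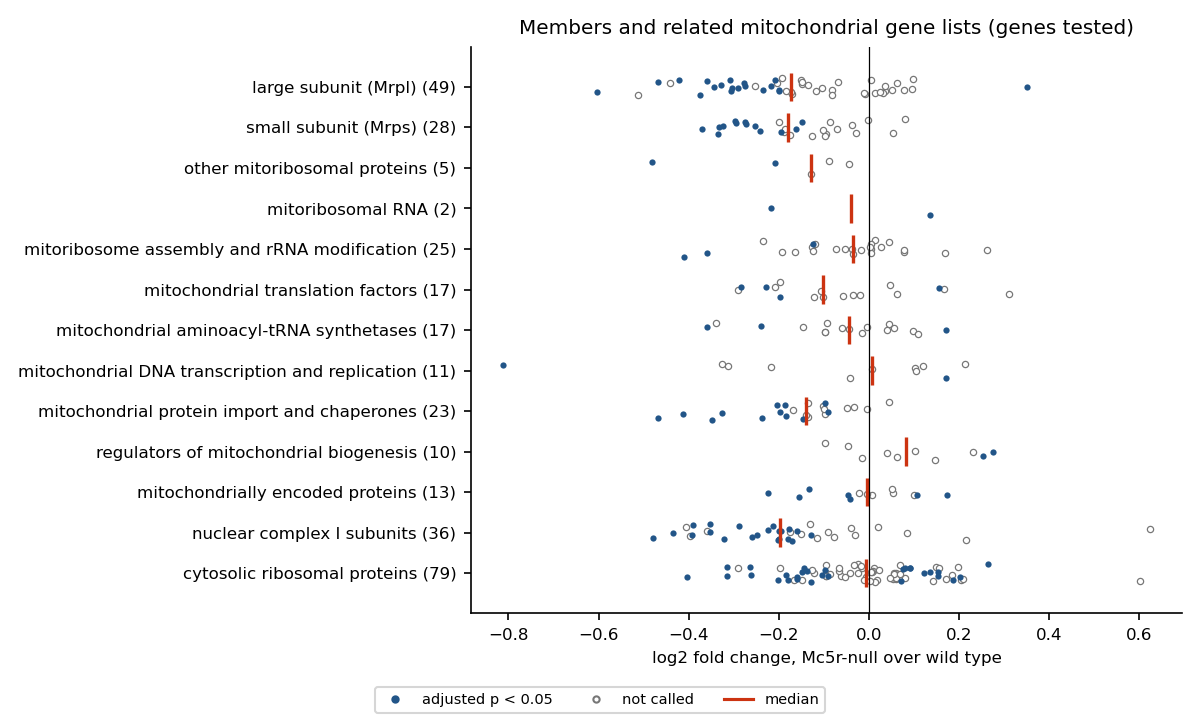
Fitted log2 fold change of Mc5r-null over wild type (horizontal axis) for each tested gene of the 2 subunits and of 11 related lists (number tested in brackets), filled where the adjusted p was under 0.05, with a bar at each median. Medians lie at -0.17 and -0.18 for the subunits, -0.20 for nuclear complex I and -0.0066 for cytosolic ribosomal proteins.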

How the data were processed

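Poly-A RNA was sequenced as paired-end stranded libraries, per the labels' protocols. The authors deposited whole-number counts and FPKM values per gene for the 6 libraries. CASAVA 1.8, HISAT2, StringTie and edgeR and the build GRCm38 are named per the submitters' processing notes, without roles or further versions, so the counter and its use of strand are not given in the sources used here. Library totals equal the sums of the deposited counts.

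The counts were tested in R 4.3.3 with edgeR 4.0.16 (filterByExpr with a minimum count of 10 and total of 15, TMM scaling, robust quasi-likelihood F-test on genotype, Benjamini-Hochberg adjustment over all genes tested). SEs are the absolute log2 fold change over the square root of F. The fit was tested on simulated data first. Alternatives were DESeq2 1.42.0, limma-voom (limma 3.58.1), other scalings, filters and thresholds, a replicate block, a fit without immunoglobulin genes and leaving out each library. FPKM with merged exon lengths was added after seeing the data. Replicate numbers are shared by the genotypes in the labels, but same-numbered libraries did not deviate together (correlations across genes 0.0030, -0.033 and -0.026), so the reported fit has no block.

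The members and the gene lists were chosen with earlier results of these data known. The rule for naming took the 12 members with the smallest p in each direction among those called, the 3 highest and the lowest tested member of each subunit by FPKM, the S18 paralogues, members that did not pass the filter, and up to 3 called genes of each other list. Of the 28 assembly genes listed, 2 older symbols have no row, and 1 more did not pass the filter. Promoter windows are those of RefSeq, and overlaps come from GENCODE mouse release 21. No library was left out of the reported fit.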

Additional observations from a re-analysis of the deposited data

How the results depend on the processing

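Under every alternative run, the median of both subunits stayed below 0. Of the 31 members that fell, 17 passed the threshold under every alternative other than an adjusted p under 0.01, and 14 lost the call in at least 1. With DESeq2 17 members fell (11 large, 6 small), and of the other lists 37 genes fell and 6 rose, against 67 and 20 with edgeR; over all genes 9.48% fell, against 16.1%. At an adjusted p under 0.01 with edgeR, 17 members fell (11 large, 6 small) and 0 rose, and 41 and 8 genes of the other lists fell and rose, with 9.46% of all genes lower. Leaving out 1 library at a time gave 20 to 27 members that fell, 13 to 16 of the large and 6 to 11 of the small subunit, and 53 to 58 genes lower and 11 to 15 higher in the other lists, while 12.8% to 13.4% of all genes fell. The 20 came without wild-type replicate 2, and 18 of them were among the 31. Of the other lists, the count of genes that rose was 11 without wild-type replicate 1 and 13 without Mc5r-null replicate 1. The replicate block gave 26 members that fell (24 of them among the 31), 14 large and 12 small, and 59 lower and 16 higher in the other lists. In that fit 14.1% of all genes fell. Counting Mrps18a and Mrps30 with the large subunit gave FPKM ratios of 2.30 in wild type and 2.33 in Mc5r-null, and medians in place of sums gave 1.16 and 1.23. Without immunoglobulin genes in the totals the members' share was 0.312% and 0.288%. Without a filter on low counts the median log2 fold change of all genes was 0.03. Where values moved, the cause was not tested. At this depth a change of 1.1-fold was called in only some members, and Mrps10, with at most 10 counts a library, could not be assessed.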
